A study of Ovis aries with 2 samples.

Results

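Endothelin 3 and its receptors, and KIT ligand and its receptor, were followed through the cells of lambskin. The genes were taken by name: EDN3, EDNRA, EDNRB, KIT and KITLG. All 5 were rows of the deposited table of 18161 genes, and they were read in all 14037 cells of it. The skin came from Hu Sheep lambs at 3 days of age, 3 lambs with straight wool and 3 lambs with curly wool. Within each wool type the skin of the lambs was pooled, cells from dissected follicles were mixed with cells from dissociated whole skin, and 1 library of 10x Genomics single-cell RNA-seq was made. The lambs of a pool cannot be told apart, and the proportion of follicle to skin suspension is not given in the sources used here. With 1 library for each wool type there was no replicate and no test between them, so every interval below is a 95% interval that covers counting error only.

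Endothelins are small peptides that are cut from longer precursors by endothelin converting enzymes such as ECE1. They act on a pair of G protein-coupled receptors, of which EDNRA binds endothelin 3 only weakly while EDNRB binds all the endothelins. KITLG, also called stem cell factor, is made as a membrane-bound and a shed ligand and acts on KIT, a receptor tyrosine kinase on mast cells and on pigment cell precursors. In skin, EDN3 acting on EDNRB and KITLG acting on KIT are best known for guiding melanocytes into the follicle, and KITLG also keeps mast cells alive.

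The straight library held 6452 cells with a median of 7373.5 UMIs (unique molecular identifiers, 1 for each captured RNA molecule), and the curly library 7585 cells with a median of 7495 UMIs. The cells fell into 20 clusters, which took class names from their marker genes, for example DPC-like (dermal papilla cells, the signalling mesenchyme at the base of the follicle). The 5 genes, EDN1 and EDN2 were kept out of the genes used for clustering, so no cluster was defined by them. Of these, 5 clusters carried no clear name and are given by number. Cluster 4 was shallow, with a straight median of 667 UMIs and a curly median of 766.5 UMIs, and held at most 17 straight and 22 curly UMIs of any member. A finer clustering gave 30 subclusters. The UMIs of a gene were summed over the cells of a class and are given as CPM, that is, per 1000000 UMIs of the class. In pairs of values the straight library comes first. Levels of different genes are not compared with each other here. Both libraries shared 70 barcodes, and the values without those cells are given with the other alternatives.

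Each of the 5 genes had its highest level in the same class in both libraries (the plot of levels by class). EDN3 was highest in DPC-like cells, EDNRA in vascular smooth muscle or pericyte-like cells, EDNRB in endothelial-like cells, KIT in mast cell-like cells and KITLG in hair shaft-like cells. With the finer clustering this did not hold for KITLG and EDNRB. KITLG was then highest in matrix-like subcluster 5 in straight skin (79.0 CPM, against 63.4 CPM in hair shaft-like subcluster 7) and in subcluster 7 in curly skin (47.2 against 44.9 CPM). The highest straight EDNRB level was then 87.3 CPM in fibroblast-like subcluster 26, where all 7 UMIs came from 1 cell. In the main clustering, ligand and receptor of each pair peaked in different classes. A shared leading class was found for 45.0% of the 11986 genes with at least 200 UMIs, against 4 of the 4 members with that many, while EDNRB had 127 UMIs in all. KIT was the only one of the 4 whose leading class stood at least 4-fold above the next in both libraries, which 3.46% of the genes did.

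**Figure D1:**
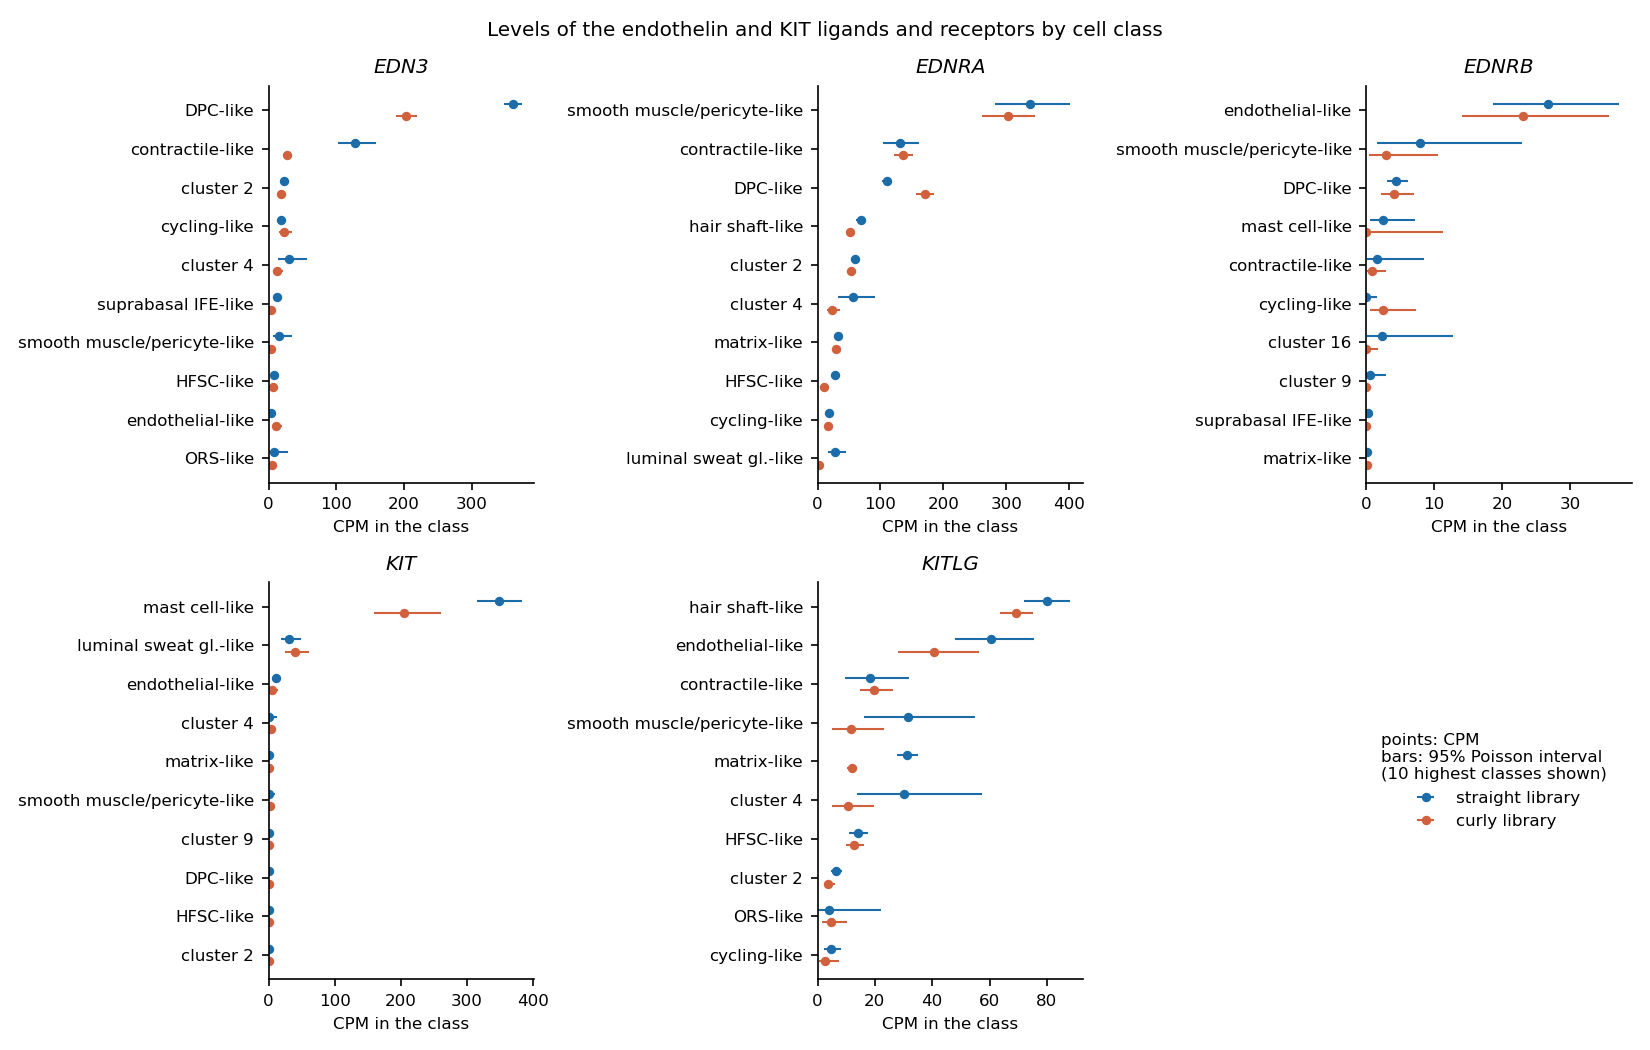
CPM of each gene (x axis) in the 10 classes or clusters with the highest level (y axis), for the straight (blue) and the curly library (orange), with exact Poisson intervals. KIT has 1 class far above the others, while EDNRA and KITLG step down through several classes.

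Of the ligand genes, EDN3 differed most between the libraries as a whole. Over all cells, 3441 UMIs gave 59.4 CPM in the straight library and 968 UMIs gave 12.5 CPM in the curly library, a log2 ratio of curly over straight of -2.25 (-2.36 to -2.15). Its main source was the DPC-like class, with 1285 straight and 714 curly cells, 19.9% and 9.41% of the libraries. In DPC-like cells EDN3 stood at 360 CPM (347 to 374) in straight and at 203 CPM (188 to 219) in curly cells, a log2 ratio of -0.83 (-0.95 to -0.70). Within the class the curly level was therefore lower, but by less than over the whole libraries. An EDN3 UMI was found in 53.1% of straight and 24.8% of curly DPC-like cells, or in 34.6% and 17.5% after each cell was thinned to 2000 UMIs. In IRS-like cells (inner root sheath, an epithelial layer), the same share was 3.94% in straight and 0.273% in curly cells at median depths of 16026 and 19851 UMIs, against 5976 and 4265 UMIs in DPC-like cells. DPC-like cells held 83.5% of all straight EDN3 UMIs and 66.3% of the curly ones.

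The DPC-like class was a mix of subclusters with very different EDN3 levels. Subcluster 2 was led by FGF7 (a growth factor of dermal papilla), EBF1 and EDN3 itself, and subcluster 1 by CRABP1, APOD, IGFBP3 and SOX18. RSPO3 (a Wnt enhancer) was among the leading genes of both. In curly cells APOD and IGFBP3 were higher in subcluster 2 (4670 and 7926 CPM) than in subcluster 1 (3576 and 6519 CPM). CRABP1 and SOX18 were higher in subcluster 1 in both libraries, and FGF7 was higher in subcluster 2. In subcluster 2 EDN3 stood at 499 CPM in 628 straight and at 446 CPM in 207 curly cells. The ratio there was close to 0 on the log2 scale, at -0.16 (-0.30 to -0.03), although 90.3% of straight and 62.8% of curly cells had a UMI, at median depths of 8057.5 and 5739 UMIs. In subcluster 1 EDN3 stood at 108 CPM in 609 straight and at 40.2 CPM in 455 curly cells, a log2 ratio of -1.42 (-1.81 to -1.05). A ratio at least 2-fold lower in curly cells was found for 2.56% of the 4219 genes with at least 100 UMIs in subcluster 1. Subcluster 2, the one rich in EDN3, made up 48.9% of straight but 28.99% of curly DPC-like cells. The remaining subcluster of the class, 46 straight and 51 curly cells with fibroblast markers such as COL1A1, LUM and PI16, had 1 EDN3 UMI in all. These cells were shallow, at median depths of 899 and 856 UMIs, and their EDN3 intervals reached up to 69.5 and 43.3 CPM. The difference in the DPC-like class thus came with a different mix of subclusters, and subcluster 2, where the levels were nearest to each other, held 2567 of the 3441 straight and 559 of the 968 curly EDN3 UMIs (the plot of curly over straight ratios). How much of it the mix accounts for was not tested.

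Outside the DPC-like class EDN3 was found in contractile-like and in some epithelial cells. The contractile-like class, which carried smooth muscle genes such as ACTG2 and ACTA2 together with the basal keratin genes KRT5 and KRT14, had 128 CPM of EDN3 in its 81 straight cells and 26.7 CPM in its 272 curly cells. The log2 ratio was -2.26 (-2.75 to -1.78), and 2.52% of the 3248 genes with at least 100 UMIs in the class were at least 2-fold lower in curly cells. These cells did not form 1 group with respect to EDN3. When the class was divided at 20000 CPM of summed contractile markers, a value chosen after seeing the data, the 38 straight cells under it had 319 CPM of EDN3 (82 UMIs) and the 43 straight cells at or above it had 5.01 CPM (2 UMIs). The 40 curly cells under it had 93.3 CPM (18 UMIs) and the 232 curly cells above it had 21.1 CPM (48 UMIs). Among cells with high contractile markers the order of the libraries was therefore turned, with a log2 ratio of 2.07 (0.14 to 5.16) that rests on 2 straight UMIs. The cells under the division also carried FGF7, at 778 CPM (straight) and 280 CPM (curly), and KRT15, at 4311 and 2696 CPM, while ACTG2 was at 70.03 and 1094 CPM. Of the other leading genes of the DPC-like class, only WIF1 and RSPO3 were read in these cells. WIF1 was at 19.45 and 0 CPM and RSPO3 had no UMI, against 1414 and 681 CPM of WIF1 and 1324 and 1126 CPM of RSPO3 in subcluster 2. In the whole contractile-like class the summed DPC markers, which include FGF7, were also read. They stood at 1123 CPM in straight cells with EDN3 and 232.7 CPM in those without, and at 263.3 and 262.4 CPM in curly cells. There were 7 straight and 99 curly cells between 10000 and 40000 CPM, near the division.

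Cluster 2, an unnamed epithelial cluster led by FGFBP1, DLK2 and SPINK4, had 23.3 CPM of EDN3 in straight and 18.6 CPM in curly cells, and cycling-like cells had 18.1 and 23.4 CPM. Suprabasal IFE-like cells (interfollicular epidermis above the basal layer) had 11.9 and 4.01 CPM. EDN3 UMIs were also set against the summed UMIs of the DPC markers. In DPC-like cells there were 2.80 EDN3 UMIs per 100 marker UMIs in straight and 1.17 in curly cells. Cluster 2 had 7.65 and 5.61, contractile-like cells 24.8 and 10.2 and cycling-like cells 4.94 and 8.64, all above the DPC-like values of the same library. Matrix-like cells, at 2.74 and 0.930 CPM of EDN3, had 0.843 and 1.10 per 100 marker UMIs, under the DPC-like values. HFSC-like cells (hair follicle stem cells) had 0.910 and 1.80, under the DPC-like value in straight and above it in curly cells. The DPC-like values are means over subclusters with very different EDN3 levels. Whether the EDN3 UMIs of other classes came from the RNA of dermal papilla cells was not tested.

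The other endothelin genes had other sources (the plot of endothelin genes by class). EDN1, the vasoconstrictor made by vessel walls, stood at 49.0 CPM (straight) and 108 CPM (curly) in endothelial-like cells, a log2 ratio of 1.14 (0.66 to 1.62). Of the 2448 genes with at least 100 UMIs in endothelial-like cells, 4.62% were at least 2-fold higher in curly cells. In luminal sweat gland-like cells EDN1 stood at 73.8 and 180 CPM, a log2 ratio of 1.28 (0.75 to 1.83). The share of all genes past 2-fold was not calculated for that class. Cluster 16, an unnamed cluster with the kallikrein genes KLK6, KLK7 and KLK10, went the other way with 87.2 and 35.3 CPM. EDN2 was low throughout, at 44.0 CPM in the 25 straight and 7.75 CPM in the 87 curly ORS-like cells (outer root sheath) and at 4.01 and 20.1 CPM in HFSC-like cells (hair follicle stem cells). ECE1, which makes the active peptides, was highest in endothelial-like cells at 126 and 147 CPM. In DPC-like cells, where EDN3 was highest, ECE1 stood at 47.9 CPM (straight) and 21.8 CPM (curly).

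**Figure D2:**
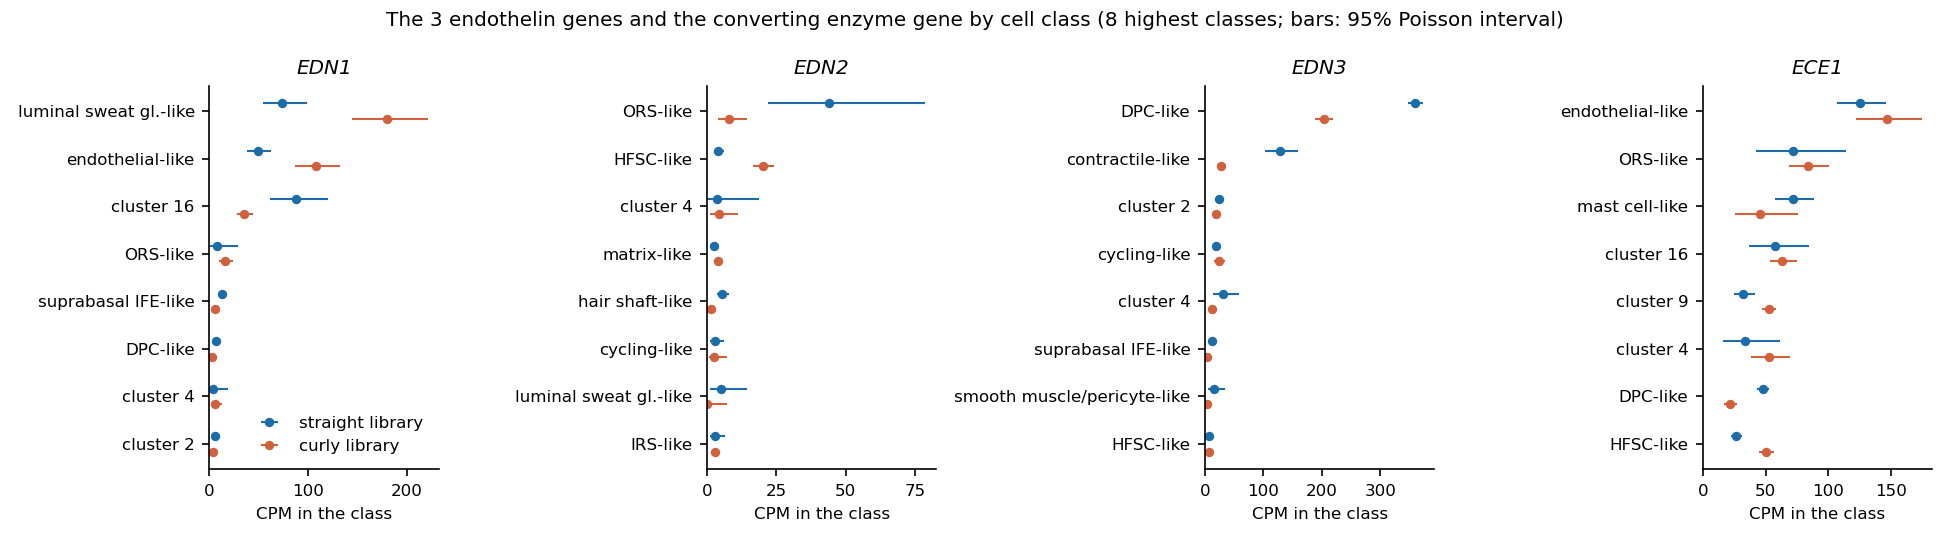
CPM (x axis) of EDN1, EDN2, EDN3 and ECE1 in the 8 classes or clusters with the highest level of each (y axis), for the straight (blue) and the curly library (orange), with exact Poisson intervals. By the level over both libraries each endothelin gene leads in another class: EDN3 in DPC-like, EDN1 in luminal sweat gland-like and EDN2 in ORS-like cells. Only the lead of EDN3 is the same in each library. In straight skin EDN1 is highest in cluster 16 (87.2 CPM), and in curly skin EDN2 is highest in HFSC-like cells (20.1 CPM).

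EDNRA was the broader of the endothelin receptors, at 44.6 CPM over the straight and 32.9 CPM over the curly library. In vascular smooth muscle or pericyte-like cells, where it relays contraction, it stood at 338 CPM (282 to 402) in 84 straight and at 302 CPM (262 to 346) in 152 curly cells, and the intervals overlapped (log2 ratio -0.16, -0.49 to 0.17). Contractile-like cells had 131 and 136 CPM, again with overlapping intervals. DPC-like cells stood below them in straight and above them in curly skin, at 110 CPM (103 to 117) and 171 CPM (157 to 186), a log2 ratio of 0.64 (0.48 to 0.80). Unlike EDN3, EDNRA was therefore higher in curly than in straight DPC-like cells. Hair shaft-like cells had 68.5 and 51.4 CPM, cluster 2 had 58.9 and 52.8 CPM and matrix-like cells (the dividing progenitors of the shaft) had 31.8 and 29.01 CPM. Luminal sweat gland-like cells had 27.9 CPM on 17 UMIs and 1.98 CPM on 1 UMI. The finer clustering added a small sebocyte-like subcluster of 52 straight and 20 curly cells, with 236 and 139 CPM. Endothelial-like, mast cell-like, IRS-like and ORS-like cells and clusters 9 and 16 stayed under 8 CPM in both libraries. An EDNRA UMI was found in 67.9% of straight and 66.4% of curly smooth muscle or pericyte-like cells, against 2.60% and 2.41% of endothelial-like cells, at median depths of 3928.5 and 3814 against 5306 and 3827 UMIs. Since the classes differ in size, the DPC-like class still held the largest share of EDNRA UMIs in both libraries, 33.8% and 21.2%, and the smooth muscle or pericyte-like class held 4.99% and 8.07% (the plot of UMI shares).

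**Figure D3:**
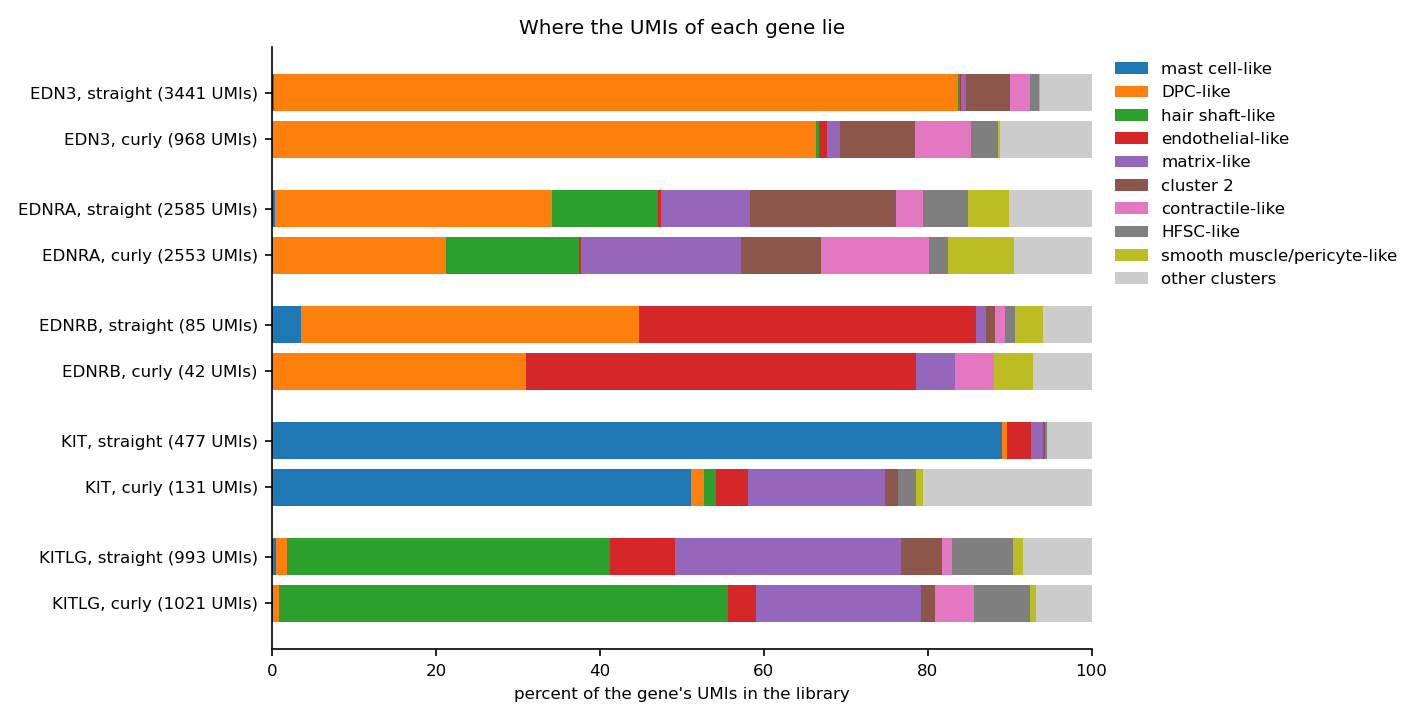
Percent of the UMIs of each gene (x axis) found in each class, for each gene and library (y axis, with the number of UMIs). DPC-like cells hold most of EDN3 and mast cell-like cells most of KIT in the straight library, while the UMIs of EDNRA and KITLG are spread over many classes.

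EDN3 and EDNRA took opposite places within the DPC-like class. In subcluster 2, where EDN3 was high, EDNRA stood at 61.3 CPM (straight) and 105 CPM (curly). In subcluster 1, where EDN3 was low, EDNRA stood at 204 and 222 CPM. EDNRA was close between the libraries in subcluster 1, with a log2 ratio of 0.13 (-0.06 to 0.31), and higher in curly cells in subcluster 2, at 0.77 (0.47 to 1.07). Single cells showed this in the straight library: after thinning to 2000 UMIs, EDNRA was found in 12.6% (9.53 to 16.1) of the 414 cells with EDN3 and in 22.2% (19.3 to 25.2) of the 781 cells without. In the curly library the shares were 28.97% (20.6 to 38.5) of 107 cells and 29.1% (25.1 to 33.2) of 506 cells, and their intervals overlapped.

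EDNRB was sparse, with 85 UMIs in the straight and 42 UMIs in the curly library. Endothelial-like cells had 26.8 CPM (18.7 to 37.3) from 35 UMIs in straight and 23.1 CPM (14.1 to 35.7) from 20 UMIs in curly skin, a log2 ratio of -0.21 (-1.08 to 0.62). They held 41.2% and 47.6% of all EDNRB UMIs, and a UMI was found in 14.1% and 7.83% of these cells, against none of the 127 straight and 367 curly IRS-like cells, which were deeper. All 27 straight and all 13 curly endothelial-like cells with EDNRB also had an endothelial marker UMI, and 23 and 9 of them had a DPC marker UMI as well. The endothelial-like class was named by the endothelial markers and had 3871 straight and 2907 curly UMIs of them. DPC-like cells, a larger class, held as many straight UMIs (35, or 4.39 CPM) and 13 curly UMIs (4.11 CPM), while smooth muscle or pericyte-like cells had 7.86 and 2.93 CPM on 3 and 2 UMIs. Of the DPC-like cells with EDNRB, 25 in straight and 8 in curly skin, all had a DPC marker UMI and none had an endothelial marker UMI, and 20 and 4 of them had EDN3. The DPC-like class was named by the DPC markers, and all its cells together had 48 straight and 13 curly endothelial marker UMIs. These marker counts therefore follow largely from the class and do not show where the EDNRB UMIs came from. A single straight DPC-like cell held 7 of the EDNRB UMIs of the class and a single curly one 5. Hair shaft-like cells had no EDNRB UMI in either library, which allows up to 0.613 CPM (straight) and 0.371 CPM (curly). EDN3, which EDNRB binds, was thus highest in a class with little EDNRB, and the class with the most EDNRB had 3.06 and 10.4 CPM of EDN3.

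KITLG, at 17.1 CPM over the straight and 13.2 CPM over the curly library, was highest in the shaft-forming cells of the follicle and next in vessel cells. Hair shaft-like cells had 79.9 CPM (72.2 to 88.2) in straight and 69.2 CPM (63.6 to 75.2) in curly skin, a log2 ratio of -0.21 (-0.40 to -0.02). Endothelial-like cells had 60.5 CPM (47.9 to 75.4) and 40.5 CPM (28.2 to 56.3). Matrix-like cells had 31.3 CPM (27.7 to 35.2) from 274 UMIs in straight and 11.9 CPM (10.3 to 13.7) from 205 UMIs in curly skin. This log2 ratio of -1.39 (-1.66 to -1.13) was past 2-fold, which 1.37% of the 8843 genes with at least 100 UMIs in matrix-like cells were in that direction. Smooth muscle or pericyte-like cells had 31.5 and 11.7 CPM on 12 and 8 UMIs, contractile-like cells 18.3 and 19.8 CPM, and HFSC-like cells 14.1 and 12.7 CPM. A KITLG UMI was found in 52.1% of straight and 38.8% of curly hair shaft-like cells, or 14.8% and 13.9% after thinning. In IRS-like cells, of similar depth, the shares before thinning were 2.36% and 1.36%.

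The main classes were also divided by the finer clustering to see which of their parts held the most KITLG. Subcluster 5, matrix-like by its markers, took in 54 straight and 93 curly cells of the hair shaft-like class and 198 and 402 cells of the matrix-like class. The cells it shared with the hair shaft-like class had the highest KITLG levels, 172 CPM (straight) and 169 CPM (curly), a log2 ratio of -0.03 (-0.34 to 0.29), with a UMI in 81.5% and 72.0% of the cells. These cells had 1372 and 3084 CPM of KRT35, a hair keratin gene. The cells of subcluster 7, with 9833 and 12260 CPM of KRT35, had 63.4 and 47.2 CPM of KITLG, and the matrix-like cells of subcluster 5, with 365 and 524 CPM of KRT35, had 53.4 and 18.1 CPM. Of these parts, the one with the most KITLG was thus not the one with the most KRT35, in both libraries. KITLG did not rise evenly with KRT35 below that. The matrix-like cells of subcluster 10 had 830 and 952 CPM of KRT35, more than those of subcluster 5, but less KITLG. The lower curly level was found in the matrix-like cells of subcluster 5, at -1.56 (-1.92 to -1.20), and in the cycling-like subcluster 10, at 28.2 and 10.1 CPM and -1.49 (-1.93 to -1.05), where 1.24% of the 6618 genes with at least 100 UMIs were at least 2-fold lower. The cells of subcluster 5 within the hair shaft-like class also had EDNRA at 128 CPM (straight) and 84.8 CPM (curly). After thinning, EDNRA was found in 20.5% (9.30 to 36.5) of the straight hair shaft-like cells with KITLG and in 13.3% (9.18 to 18.5) of those without. The curly shares were 23.0% (13.2 to 35.5) and 8.75% (6.10 to 12.1), and these did not overlap.

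**Figure D4:**
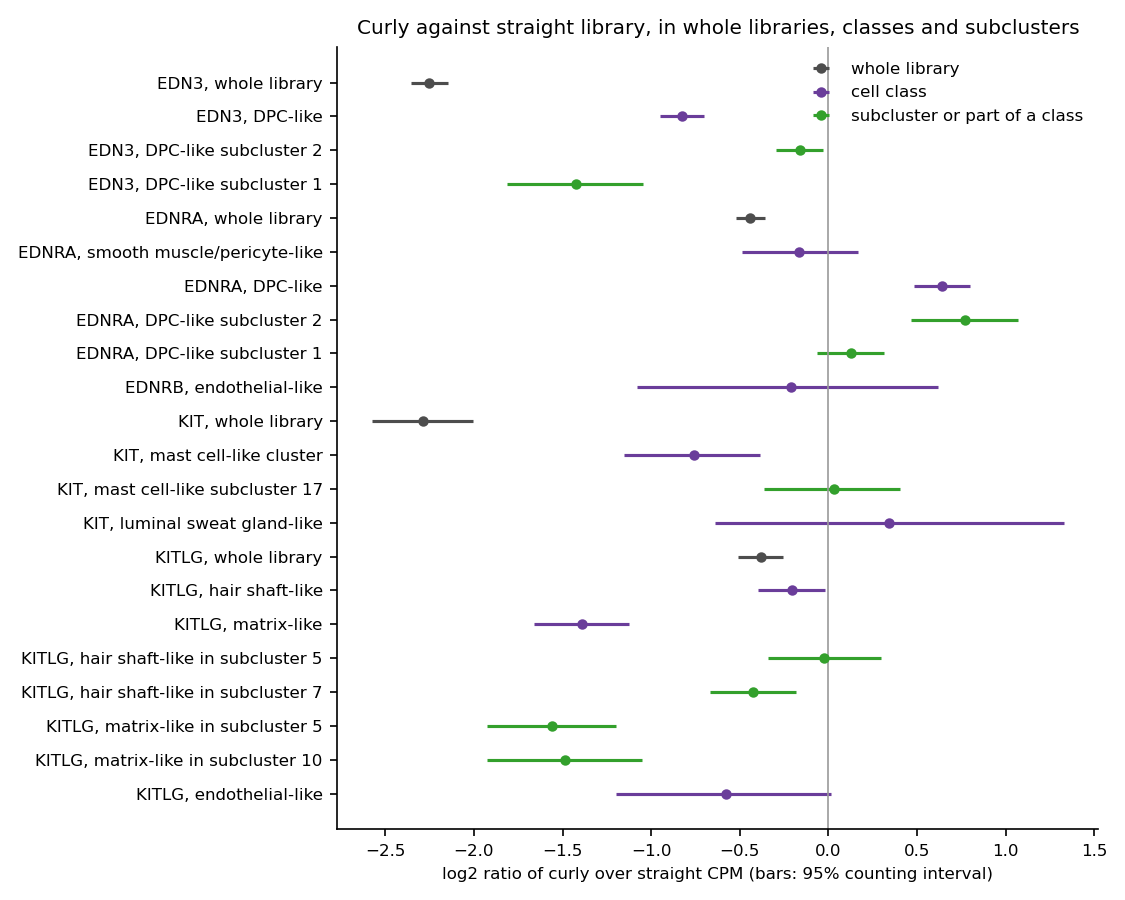
Log2 ratio of curly over straight CPM (x axis) of each gene in the whole libraries (grey), in classes (purple) and in subclusters or parts of classes (green), with counting intervals. EDN3 and KIT differ most over the whole libraries, and lie nearest to 0 in subcluster 2 and subcluster 17, which hold most of their UMIs.

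KIT marked 1 class above all others. Over all cells it had 477 UMIs (8.23 CPM) in the straight and 131 UMIs (1.69 CPM) in the curly library, a log2 ratio of -2.29 (-2.58 to -2.004). The mast cell-like cluster, with TPSB2 (tryptase), FCER1A and MS4A2 (subunits of the IgE receptor), held 301 straight and 93 curly cells, 4.67% and 1.23% of the libraries. KIT stood there at 348 CPM (316 to 382) from 425 UMIs in straight and at 205 CPM (159 to 261) from 67 UMIs in curly cells, a log2 ratio of -0.76 (-1.16 to -0.39). Of these cells, 58.5% of straight and 38.7% of curly ones had a KIT UMI, against 0 of 177 and 0 of 89 cycling-like cells, whose depth was higher. The cluster also took in cells of another kind, which the finer clustering separated. Subcluster 29, with the macrophage and dendritic cell genes CSF1R, C1QA and CD74, was 18 of the 301 straight cells and 21 of the 93 curly cells and had no KIT UMI, which allows up to 23.96 CPM (straight) and 19.1 CPM (curly). Without them, in subcluster 17, KIT stood at 387 CPM in 283 straight and at 396 CPM in 72 curly cells, a log2 ratio of 0.03 (-0.36 to 0.40). Relative to all UMIs of subcluster 17, the KIT levels of the libraries therefore lay within counting error of each other. The shares of its cells with a KIT UMI were 62.2% in straight and 50.0% in curly skin, at median depths of 3336 and 1721 UMIs. After thinning they were 47.8% (41.4 to 54.2) of 249 straight and 29.03% (14.2 to 48.04) of the 31 curly cells that were deep enough. Subcluster 17 was 4.39% of all straight cells and 0.949% of all curly ones. The ratio in the wider cluster changed sign under 3 of the alternatives, at 0.03 with the finer clustering, 0.04 without integration and 0.03 without called doublets.

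None of the 4 members with at least 100 UMIs in their leading class differed there by 2-fold in either direction. Over all genes with that many UMIs, such a difference was found for 7.76% in DPC-like, 10.2% in smooth muscle or pericyte-like, 12.3% in mast cell-like and 3.96% in hair shaft-like cells.

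KIT was also found outside mast cells. Luminal sweat gland-like cells, with KRT7, KRT19 and EPCAM, had 31.2 CPM (18.8 to 48.7) from 19 UMIs in straight and 39.5 CPM (24.1 to 61.0) from 20 UMIs in curly skin. AQP5 was low in these cells, at 4.92 CPM (3 UMIs) in straight and 15.8 CPM (8 UMIs) in curly skin. No marker of the list that named the class was among its leading genes. Whether these were sweat gland cells or another glandular epithelium was not tested. The 15 straight and 14 curly luminal sweat gland-like cells with KIT included none with a UMI of any mast cell marker. Their whole class had 7 mast cell marker UMIs in straight and 0 in curly cells, so few or none could have had one. All 176 straight and all 36 curly KIT cells of the mast cell-like class had one, but that class was named by these markers. Endothelial-like cells had 10.7 CPM (14 UMIs) and 5.79 CPM (5 UMIs), and 2 of 13 and 3 of 5 of their KIT cells had a mast cell marker UMI. Matrix-like cells were near the lower limit at 0.799 CPM (7 UMIs) and 1.28 CPM (22 UMIs), yet because mast cell-like cells were few in the curly library they held 16.8% of its KIT UMIs. Of the 19 curly matrix-like cells with KIT, 0 had a mast cell marker UMI. The 981 curly matrix-like cells had 46 such UMIs in all, so few could have had one. Contractile-like, ORS-like and cycling-like cells had no KIT UMI in either library. In the order of KIT levels, luminal sweat gland-like and endothelial-like cells did not overlap in their intervals in the straight or the curly library, and both lay under the mast cell-like class.

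No group of melanocytes, the textbook receivers of both signals, was found by their markers. Of the melanocyte markers, TYR and TYRP1 were not analysed here, MLANA had 1 UMI, DCT had 8 UMIs and PMEL had 154 UMIs over 148 cells with no class above 2.77 CPM. Of the 6 melanocyte markers in the table, 1366 cells had UMIs of 1, 27 cells of 2 and no cell of 3 or more, and none of the 27 had KIT or EDNRB. KIT and EDNRB were found together in 7 cells, none of which had PMEL, MLANA or DCT. The broader genes of the list lay in other classes: over both libraries, MITF was highest in mast cell-like cells at 75.5 CPM, SOX10 in contractile-like cells at 23.7 CPM and OCA2 in DPC-like cells at 23.2 CPM. Of the cells with a KIT UMI, 237 had none of the 6 markers and 74 had 1 of them, and of the cells with an EDNRB UMI 84 had none and 12 had 1.

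The leading classes of the other genes of the pathways were read in the same way. Of the 6 other genes of the endothelin system 4 had at least 200 UMIs and 1, ECE1, led in the same class in both libraries, and of the 2 other genes of the KIT system 1, the sheddase gene ADAM17, had that many and led in cluster 4. Of the 14 genes of endothelin receptor signalling, 12 had at least 200 UMIs, 9 of them led in the same class in both libraries, and 1 was 4-fold above the next class. Among the 9, 3 led in mast cell-like cells: GNA13 (65.5 and 49.0 CPM), a G protein subunit, and ARRB1 (97.4 and 64.3 CPM) and ARRB2 (45.8 and 18.4 CPM), the arrestins that switch off such receptors. PLCB4, a phospholipase C, was highest in smooth muscle or pericyte-like cells like EDNRA itself, at 23.6 and 32.2 CPM on 93 UMIs in all. Of the 19 genes that relay or brake KIT, 14 had at least 200 UMIs, 6 of them led in the same class and none was 4-fold above the next. GRB2 (44.2 and 88.8 CPM), an adaptor, and PTPN6 (111 and 30.6 CPM), a phosphatase that restrains KIT, led in the mast cell-like class. LYN and INPP5D led there too but had 130 and 111 UMIs in all. The mast cell-like class still included the macrophage or dendritic-like cells of subcluster 29, which had no KIT UMI. They were 18 of its 301 straight and 21 of its 93 curly cells, at median depths of 7378 and 7042 UMIs. The pathway genes were not read without them, so which cells of the class carried these genes was not tested. SHC1, PLCG1 and FYN led in endothelial-like cells. The counts of shared leads and of 4-fold leads stand beside the 45.0% and 3.46% of all genes given above. MME, an enzyme that degrades endothelins, had 177 UMIs and was highest in luminal sweat gland-like cells, at 21.3 and 11.9 CPM.

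Genes with the most similar pattern were ranked by Pearson correlation of log2(CPM + 1) over 39 points, each a cluster in 1 library with at least 25 cells. The points share libraries, depth and base composition, and the values are a description. Nearest to EDN3 were LOC114118399 (r = 0.81), SMOC1 (0.80), TNC (0.79), GPC3 (0.79) and FST (0.78), of which TNC is a matrix glycoprotein and FST an activin inhibitor. Nearest to EDNRA were MXRA7 (0.79), CRISPLD2 (0.78), AXL (0.77), LOC105612334 (0.77) and AIDA (0.76). Nearest to EDNRB were LDB2 (0.87), LRRC32 (0.86), UPP1 (0.85), CHST7 (0.84) and HOXD9 (0.84). Nearest to KIT were LOC101109746 (0.85), the mast cell receptor gene MILR1 (0.83), ATP2A3 (0.83), the cytokine receptor subunit gene CSF2RB (0.83) and ERN1 (0.82). KITLG had the lowest values, with IRF2BPL (0.70), EOGT (0.68), BCAM (0.68), MRPS18C (0.66) and IL11 (0.66). Between members, EDN3 and EDNRA had r = 0.53 and EDNRA and KITLG r = 0.52, while KIT and KITLG had -0.09 and EDN3 and EDNRB 0.365.

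In the RefSeq gene order of the ARS-UI_Ramb_v3.0 assembly, KIT lies next to KDR, a receptor gene of vessel cells, which led in endothelial-like cells at 156 and 130 CPM. KIT itself was at 10.7 and 5.79 CPM there and led in mast cell-like cells, so these neighbours had different leading classes. EDNRB lies next to SLAIN1, which led in mast cell-like cells at 51.5 and 55.1 CPM, and KITLG next to DUSP6, which led in cluster 16 in straight and in mast cell-like cells in curly skin.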

How the data were processed

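Per the labels, cells of lambskin were captured with 10x Genomics chemistry. Reads were mapped by the authors with Cell Ranger (version 3.0.2 in the submitters' processing notes) on the Oar_rambouillet_v1.0 genome, and cells were filtered. The deposited values are the natural log of 1 plus the UMIs of a gene scaled to 10000 per cell. UMI counts were calculated back from them: all 28552149 values above 0 came out whole within 0.01. The straight library held 57956122 and the curly library 77634565 UMIs, and 3 UMIs, the limit that a count of 0 allows, are 0.0518 and 0.0386 CPM of a whole library. A figure legend in the study's supplement names a minimum of 1750 genes per cell, which 8285 of the 14037 deposited cells meet. No further filter on cells was applied in the main values, and doublets were kept in the main values; an alternative left out the 6% of each library with the highest Scrublet score (842 cells, Scanpy 1.11.5).

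Cells were clustered with anchor integration in Seurat 5.3.0 (R 4.3.3) on 2000 variable genes without the 5 genes, EDN1 and EDN2, and 30 dimensions, at the lowest resolution with at least 19 clusters. The finer clustering used resolution 0.8. A cluster took the name of the marker list with the highest mean log2 ratio of CPM + 5 to the other clusters, if this was at least 1.5, at least 3 markers were in at least 10% of its cells and no other list had more genes among its 10 leading genes. These naming limits were set after seeing the data. Rebuilt names may differ from those of the study. Classes with at least 25 cells in each library were compared, 17 of 18.

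Intervals are exact Poisson for CPM, Clopper-Pearson for shares of cells and a binomial split for log2 ratios (numpy 2.4.6, scipy 1.17.1). For shares at equal depth, cells were thinned to 2000 UMIs, which left out 1037 straight and 1533 curly cells. The genes named are the 5 genes, the pathway and marker lists, the leading genes of clusters, and for each of the 5 the 5 genes with the highest Pearson correlation; KRT35, ACTG2 and the neighbours in gene order were added after values were seen. The 5 genes and the lists were chosen with earlier results of these data known. No sequences were used here.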

Additional observations from a re-analysis of the deposited data

How the results depend on the processing

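No paired analysis was possible because each wool type had 1 library and no result comes from a test. Counting error is the only error given, and it does not cover differences between lambs, pools or dissociations. Wool type and library cannot be told apart.

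The largest dependence was that of KIT in mast cell-like cells. Its log2 ratio of curly over straight, -0.76 in the main clustering, turned to 0.03 at resolution 0.8, 0.039 without integration and 0.029 without called doublets, and was -0.037 with the 5 genes allowed among the variable genes and -0.152 as the mean of per-cell CPM. The KIT levels were then 387.4 and 395.5 CPM (resolution 0.8), 387.4 and 398.2 CPM (no integration), 418.8 and 427.4 CPM (no doublets) and 387.4 and 377.7 CPM (5 genes allowed), and 328.4 CPM in curly cells as the per-cell mean. In the first of these the macrophage or dendritic-like cells were outside the class; for the others the cause was not tested. EDN3 in DPC-like cells was 443.1 and 301.9 CPM in the cells that meet the minimum number of genes in the study's supplement, with a log2 ratio of -0.553 and 60.4% of the curly UMIs in the class, and 284.4 and 150.2 CPM as the per-cell mean. EDNRA in smooth muscle or pericyte-like cells was 455.4 and 438.4 CPM as the per-cell mean. KITLG in hair shaft-like cells was 63.4 and 47.2 CPM at resolution 0.8, with a log2 ratio of -0.425 and 26.5% and 30.7% of its UMIs, 67.0 and 48.6 CPM without doublets, with -0.463, 25.3% and 29.7%, and 116.5 and 90.6 CPM as the per-cell mean, and its straight share was 35.1% without integration.

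Shares of cells with a UMI after thinning were 34.6% and 17.5% for EDN3, 46.7% and 49.1% for EDNRA, 5.34% in straight cells for EDNRB, 46.0% and 19.6% for KIT and 14.8% and 13.9% for KITLG. By Spearman correlation, 1 of the 5 genes most like EDN3, 2 of those most like EDNRA and 0 of those most like EDNRB or KIT were again among the first 5. Without the 140 cells whose barcode is in both libraries, an alternative chosen after seeing the data, the ratio was -0.82 for EDN3, -0.17 for EDNRA, -0.22 for EDNRB, -0.77 for KIT and -0.18 (-0.37 to 0.01) for KITLG. Of the alternative values of CPM, 45 stayed within counting error of the main value and 21 did not. Of the log2 ratios 30 stayed, 5 moved outside it and 3 changed sign. Of the shares 51 stayed and 15 moved. Under that minimum no mast cell-like class was left and the smooth muscle or pericyte-like class had 19 straight cells, under the minimum of 25, so no value was given.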
